A study of Mus musculus with 2 samples.

Results

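The cytoplasmic ribosomal protein genes were examined in polyA RNA-seq of mouse hindbrain at embryonic day 12.5. They are the genes annotated as protein coding in GENCODE M21 (the newer of 2 gene annotations used for the deposited tables) whose symbols follow the Rpl and Rps naming pattern. The rule took 83 genes of 55536, of which 31 encode proteins of the small 40S subunit and 52 proteins of the large 60S subunit or their paralogs. After leaving out the 7 members that are second copies of another member (Rpl3l, Rpl7l1, Rpl10l, Rpl22l1, Rpl36al, Rpl39l and Rps27l), 76 core genes remained, 30 for the 40S and 46 for the 60S subunit. The symbol pattern does not take Rps3a1 and Fau, which also encode ribosomal proteins. Rps4l follows the pattern but is left out by its gene type, since M21 annotates it as a transcribed processed pseudogene.

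There was 1 group, the hindbrain of B6NCrl embryos of both sexes with no treatment, and 2 samples of it. Pool 2 held tissue of 88 embryos and pool 1 tissue of 120 embryos, and 10 ng of RNA entered each library. The 2 pools are labelled as biological replicates, each a mix of many animals, so the spread between them is a spread between pools and not between embryos. The design has no contrast of conditions, and no test was made; values are given per pool, with the mean and SD (n = 2).

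Ribosomal proteins are made in the cytoplasm and assembled with ribosomal RNA in the nucleolus into the 2 subunits, in which nearly every one is present as a single copy per ribosome. Their mRNAs are short and abundant, and most begin with a run of pyrimidines (the TOP motif) through which the mTOR pathway controls their translation, so mRNA level and protein output can differ. Because these mRNAs are abundant in the germ line, mammalian genomes hold a large number of processed pseudogenes made from them by reverse transcription, here called retrocopies, and a sequencing read from one can be identical to a read from its parent gene. In mice, mutations in several of these genes give pigment, skeletal, blood or neural defects, among them Rpl27a, whose sooty foot ataxia allele affects the cerebellum, a hindbrain derivative.

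Gene counts summed to 29261435 in pool 2 and 31469543 in pool 1, without spike-ins, which took 4.25% of all counts in pool 2 and 3.31% in pool 1. All 6 hindbrain markers, Hoxa2, Hoxb2, Hoxb3, Hoxd3 and Gbx2 among them, were at 1 TPM or more in both pools, against 1 of 4 forebrain markers. TPM is the deposited share of transcripts, scaled to a fixed total and corrected for transcript length. Embryonic red cell, muscle, mesenchyme and epithelium markers were also present, at levels that differed between the pools and are given with the pool comparison.

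Of the 83 members, 80 were at 1 TPM or more in both pools, all 80 over 40 TPM, against 61.8% of the 22028 protein-coding genes at that threshold. The median of the members was 422 TPM in pool 2 and 479 in pool 1, and the median of their mean levels was 462 TPM, against 21.8 TPM over the protein-coding genes at 1 TPM or more. Members made up 16 of the 100 protein-coding genes of highest mean TPM and 37 of the highest 200. Together they took 1.41% of all gene counts in pool 2 and 1.59% in pool 1. On the TPM scale, which weights short transcripts up, the share was 4.36% in pool 2 and 4.83% in pool 1.

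Rpl41 (chr10:128548114-128549305, minus strand, mm10), which encodes a very short basic peptide of the 60S subunit, was among the most abundant members, with 1667 TPM in pool 2 and 2103 in pool 1. Rpl32 had 1093 TPM in pool 2 and 1261 in pool 1. Rps19, the gene of the mouse Dark skin 3 mutation and of human Diamond-Blackfan anaemia, had 930 TPM in pool 2 and 1130 in pool 1. Rps25, Rpl37a, Rps29 and Rps14 were also among the 8 highest core genes, with means of 1004 ± 47.4, 992 ± 107, 956 ± 154 and 937 ± 66.9 TPM (SD, n = 2). From Rps19 to Rps14, neighbouring means lay closer together than the 2 pools of either gene, so their order is not resolved.

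The lowest core gene was Rpl5 (ENSMUSG00000058558.12, chr5:107900502-107909005, plus strand), with 51.3 TPM in pool 2 and 46.3 in pool 1. Rpl5 and Rpl11 bind 5S ribosomal RNA before it joins the 60S subunit, and the same complex can bind the p53 regulator Mdm2. Rpl11 had 212 TPM in pool 2 and 226 in pool 1. Above Rpl5 came Rpl27a with 71.2 ± 7.11, Rpl12 with 83.1 ± 7.81, Rps12 with 88.4 ± 0.827 and Rps23 with 146 ± 13.5 TPM (SD, n = 2). Rps20, the gene of the mouse Dark skin 4 mutation, had 182 TPM in pool 2 and 200.5 in pool 1. Rpl36a with 198 ± 23.4 and Rpl22 with 208 ± 14.9 TPM completed the 8 lowest. All of these were lower than the core median of 471 TPM in both pools, and the 5 lowest stood clear of the other core genes.

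**Figure D1:**
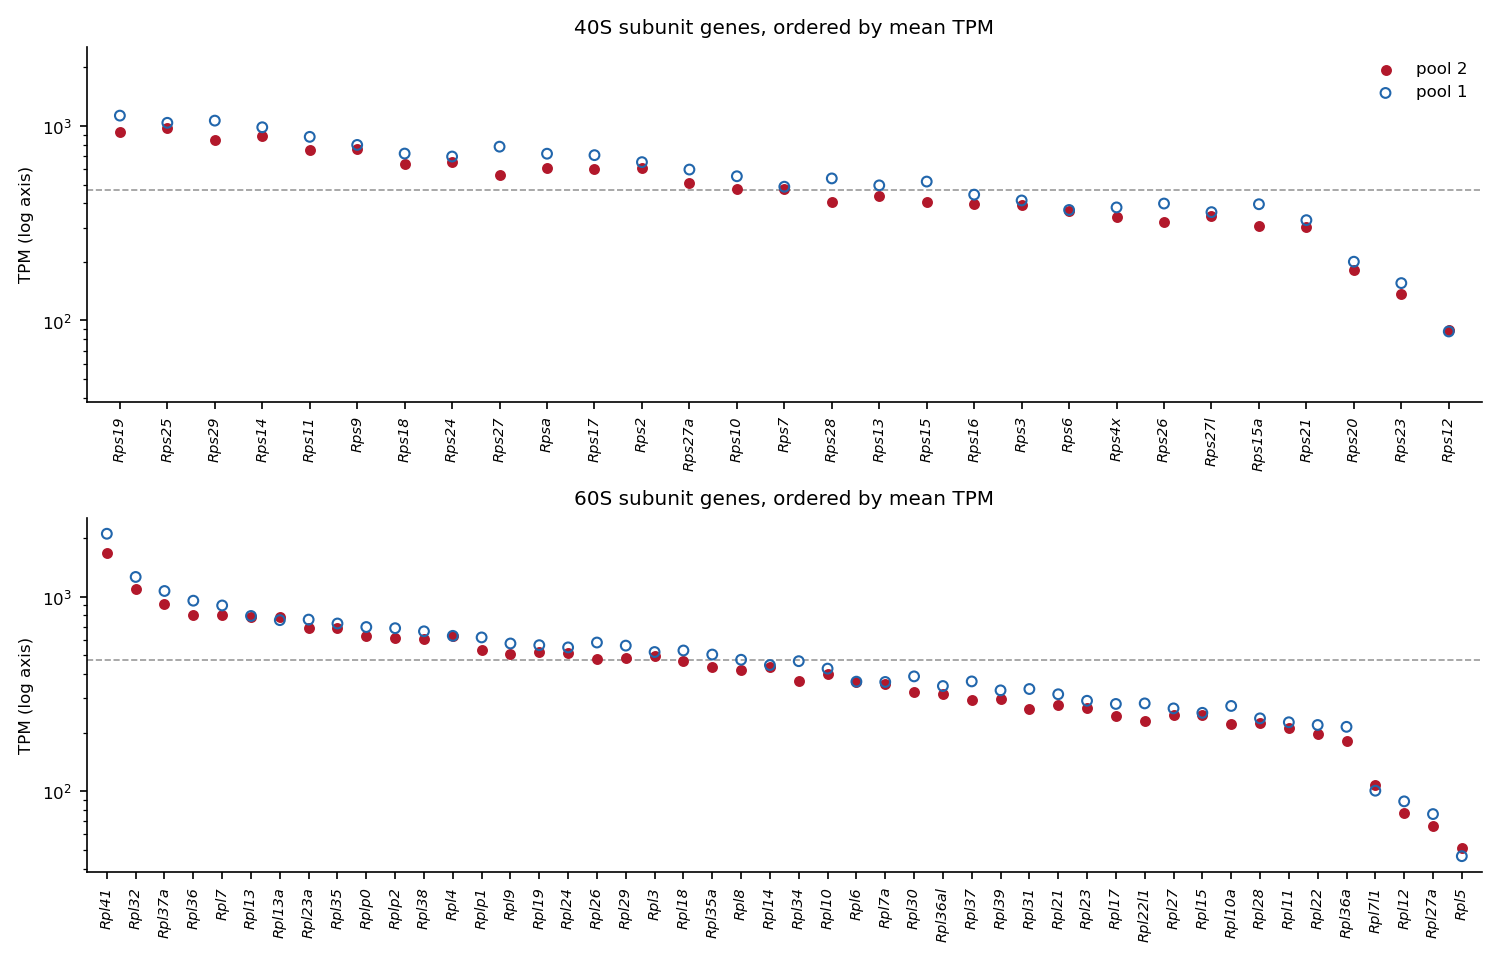
TPM (log axis) of 77 members in pool 2 (filled) and pool 1 (open), for 40S genes (top) and 60S genes (bottom), each ordered by mean TPM; the dashed line is the median of the 76 core genes, 471 TPM. Rpl41 stands at the high end, and Rps23, Rps12, Rpl7l1, Rpl12, Rpl27a and Rpl5 drop away at the low end.

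Proteins that enter the ribosome as single copies were thus read out at mRNA levels with an SD of 0.96 on the log2 scale over the core genes. The 10th to 90th percentiles spanned 4.25-fold, and 59 of the 76 core genes were within 2-fold of the median. The 2 subunits were close. The median over the core 40S genes was 462 TPM in pool 2 and 527 in pool 1, against 434 TPM in pool 2 and 488 in pool 1 over the core 60S genes. That is a log2 ratio of 40S to 60S of 0.09 in pool 2 and 0.11 in pool 1, small beside the spread among the genes of either subunit.

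Of the members with special roles, Rpl5 and Rpl11, given above, were low, and Rpl5 was the lowest core gene. The others lay within the bulk of the distribution. The stalk proteins, which recruit the translation factors that hydrolyse GTP, had 663 ± 48.8 (Rplp0), 574 ± 60.3 (Rplp1) and 651 ± 51.8 TPM (Rplp2; SD, n = 2). Rplp1 and Rplp2 enter each ribosome as dimers, and neither mRNA was above that of Rplp0. Rpsa, which also serves as a laminin receptor, had 609 TPM in pool 2 and 720 in pool 1. Rps6, the substrate of S6 kinase, had 366 TPM in pool 2 and 370 in pool 1, well matched between the pools. Rps27a, whose product is made fused to ubiquitin, had 508 TPM in pool 2 and 597 in pool 1.

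Other members known from mouse mutants differed in level. Rpl27a and Rps20, given above, were among the lowest core genes, whereas Rpl24, Rpl38 and Rps7 were above the core median. Rpl24, mutated in Belly spot and tail mice, had 530 ± 25.5 TPM. Rpl38, mutated in Tail short mice and needed there for translation of a subset of Hox mRNAs, had 633 ± 41.7 TPM. Rps7, with mouse alleles that give skeletal, pigment and neural defects, had 479 ± 11 TPM (SD, n = 2 for each).

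How far the reads assigned to a member lay in sequence shared with other genes was measured on the M21 transcripts. Each 100-base window of a member's transcripts, weighted by the transcript's expected reads, was checked for an identical copy in a transcript of another gene; reads are about that long, since effective lengths in the tables were transcript lengths minus 99 bases. Over the members with counts, a median of 45.0% of expected reads fell in windows shared with another gene, with a range of 0% to 96.1% (Rps27), and 36 members had over 50%. Of the members, 73 had at least 1 retrocopy, defined as an annotated pseudogene, or an intronless protein-coding or lincRNA gene, that shared a window with it. In all there were 465 retrocopies, of which 452 were annotated as pseudogenes and 12 as protein coding. Of these, 47 were at 10 TPM or more in both pools, 28 were at 100 TPM or more and 84 had no count. For each member with a retrocopy, the retrocopy of highest TPM matched the parent's coding sequence with a median identity of 99.7%.

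Of the 10 core genes more than 2-fold below the core median, 6 held under 50% of the counts of themselves and their retrocopies. Rpl5 held 15.1% of the counts of itself and its 5 retrocopies, the smallest share of any member. Gm15500, a transcribed processed pseudogene of Rpl5 on chromosome 7, was listed at 360 TPM in pool 2 and 392 in pool 1, against 51.3 and 46.3 TPM for the parent. Rps23 held 22.8% of its combined counts, with Rps23-ps1 on chromosome 3 at 816 TPM in pool 2 and 927 in pool 1, against 137 and 156 TPM for Rps23. Gm15500 matched the whole coding sequence of Rpl5, 894 bases, without a difference. Rps23-ps1 matched Rps23 without a difference over the 98.4% of its 432 coding bases that aligned. The first 60 coding bases, shown here, are the same in parent and pseudogene.
Rpl5 (chr5:107900502-107909005, plus strand): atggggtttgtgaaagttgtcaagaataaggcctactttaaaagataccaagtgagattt
Gm15500 (chr7:114705217-114706235, minus strand): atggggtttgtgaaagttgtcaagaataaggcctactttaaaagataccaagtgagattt
Rps23 (chr13:90922958-90924950, plus strand): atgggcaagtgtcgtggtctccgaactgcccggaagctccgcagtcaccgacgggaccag
Rps23-ps1 (chr3:37714740-37715164, plus strand): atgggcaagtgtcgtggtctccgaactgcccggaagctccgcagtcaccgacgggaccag

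Reads from these stretches cannot be placed at either locus by sequence, so from them transcription of the parent and of the retrocopy cannot be told apart. The share of a gene's expected reads in windows shared with another gene was 70.3% for Rpl5, 72.0% for Rps12 and 51.0% for Rpl12. It was 47.5% for Rps23, 31.8% for Rpl27a and 25.3% for Rps20, so most reads assigned to these 3 genes lay in windows found in no other gene. These shares weight windows by TPM after assignment, so reads given to a retrocopy are not in them. For that reason they cannot show how far a parent's level depends on the assignment. Rpl27a was at 66.2 TPM in pool 2 and 76.2 in pool 1, with Gm7536 on chromosome 3 at 319 TPM in pool 2 and 372 in pool 1. Rpl12 was at 77.5 TPM in pool 2 and 88.6 in pool 1, with Gm10275 at 177 TPM in pool 2 and 205 in pool 1. Rps12 was at 89.0 TPM in pool 2 and 87.8 in pool 1, with Rps12l1 at 184 TPM in pool 2 and 248 in pool 1. In each of these families the retrocopy was listed above its parent in both pools.

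Of the 10 low core genes, 9 held less than 75% of their combined counts, with a median share of 41.2%. Of the other 66 core genes, 10 held less than 75%, with a median share of 97.1%. Rpl22 was the low core gene without any retrocopy: none of its expected reads fell in a shared window, and its 198 TPM in pool 2 and 219 in pool 1 stand as they are.

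Adding the TPM of retrocopies to that of each parent narrowed the core genes. The SD on the log2 scale was 0.67 for the combined values, against 0.96 for the genes alone. The combined values ran from 208 TPM (Rpl22) to 2044 TPM (Rpl41), a 9.82-fold span, and 69 core genes were within 2-fold of the combined median of 613 TPM, against 59 for the genes alone. Combined, Rpl5 came to 412 TPM in pool 2 and 438 in pool 1, and Rps23 to 959 TPM in pool 2 and 1089 in pool 1. The sum assumes that all reads of a retrocopy belong to its parent, which was not tested. It also keeps each retrocopy's TPM at the retrocopy's own annotated length. A retrocopy shorter than its parent's transcripts therefore adds more TPM than the same reads would at the parent's length.

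**Figure D2:**
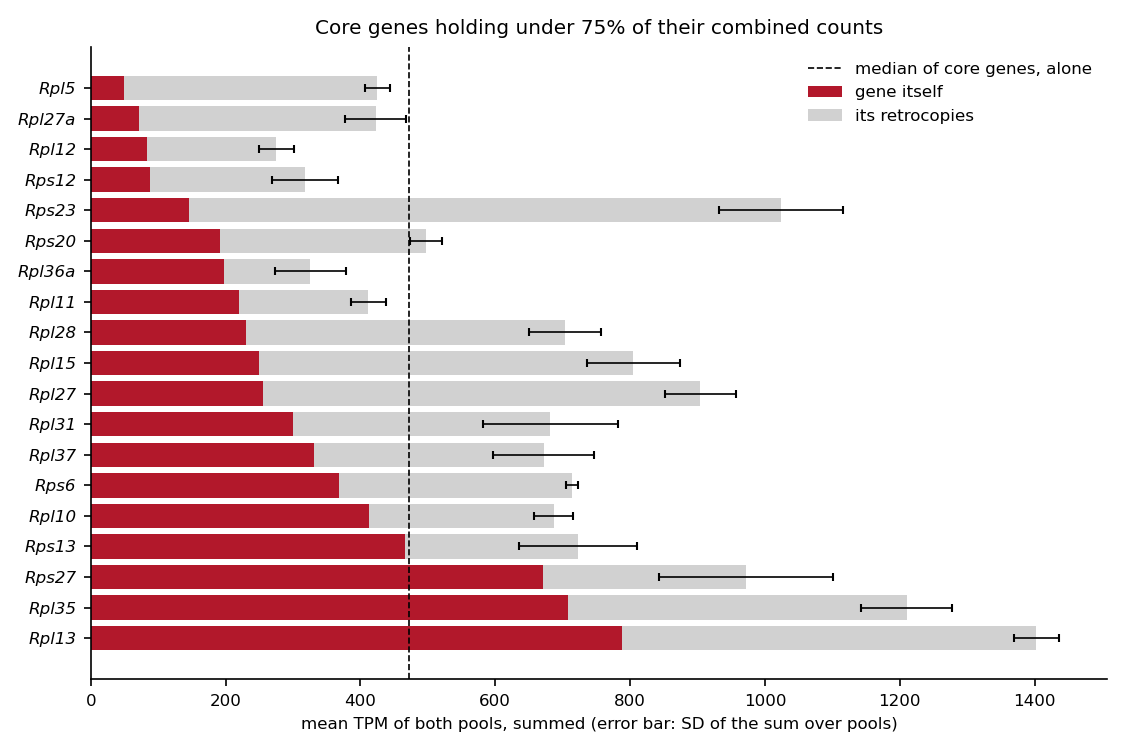
Mean TPM of the 2 pools for the 19 core genes that held under 75% of the counts of themselves and their retrocopies, with the gene in red, its retrocopies in grey and the SD of the sum over the pools as the error bar; the dashed line is the core median of 471 TPM. In Rpl5, Rpl27a and Rps23 the grey part is several times the red part.

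Highly listed retrocopies also belonged to abundant members. Gm14303, a processed pseudogene of Rps29 on chromosome 2, was listed at 962 TPM in pool 2 and 1180 in pool 1, above Rps29 itself at 847 TPM in pool 2 and 1065 in pool 1. Its counts were lower than those of Rps29, at 1275 in pool 2 and 1697 in pool 1 against 4539 in pool 2 and 6191 in pool 1, since its annotation is short and TPM divides by length. Gm12918 (parent Rpl13) was at 595 TPM in pool 2 and 628 in pool 1. Gm2000, an intronless gene annotated as protein coding with 99.7% identity to the coding sequence of Rpl35, was at 470 TPM in pool 2 and 530 in pool 1. Among the 298 pseudogenes named after a member, 53 were at 1 TPM or more in both pools. After Rps23-ps1 the highest were Rpl15-ps3 (549 ± 62.6 TPM), Rpl28-ps1 (471 ± 43.8), Rpl31-ps8 (379 ± 49.1), Rps6-ps4 (344 ± 6.33) and Rpl27-ps3 (322 ± 18.3; SD, n = 2).

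The deposited tables give a posterior SD for each count, which describes how firmly reads were assigned. Relative to the count, its median was 0.462% in pool 2 and 0.460% in pool 1, and it was 2% or more in 14 members. The largest were 4.53% for Rpl10a in pool 2, 4.39% for Rps12 in pool 2 and 4.37% for Rps27 in pool 2. For Rpl5 it was 3.74% in pool 2 and 4.17% in pool 1. These values describe assignment within 1 annotation and 1 library, and are smaller than the largest changes that a different annotation brought.

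The same libraries had been quantified on an older annotation, GENCODE M4, which holds 43346 genes. Between M21 and M4, 64 of the 80 members had counts within 5% of each other in both pools. In both pools, 5 members were higher in M21 by 25% or more (background over all genes compared, 4.92%) and 2 were lower by 20% or more, the same fold (background 1.29%). At 2-fold, Rps27 was higher (background 1.48%) and 0 were lower (background 0.656%). The 2 quantifications share their reads, so these are differences of assignment and not of expression.

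The largest difference was in Rps27, a zinc finger protein of the 40S subunit. It had 2585 counts in pool 2 and 3890 in pool 1 in M21, against 562 in pool 2 and 892 in pool 1 in M4, which is 4.36-fold higher in M21 in pool 1 and slightly more in pool 2. Its intronless copy Rps27rt on chromosome 9, annotated as protein coding, went the other way, with 1605 counts in pool 2 and 1488 in pool 1 in M21 against 3532 in pool 2 and 4413 in pool 1 in M4. Rps27 and Rps27rt have an identical coding sequence, whereas the paralog Rps27l differs at 18 of the first 60 coding bases (capitals).
Rps27 (chr3:90212522-90213651, minus strand): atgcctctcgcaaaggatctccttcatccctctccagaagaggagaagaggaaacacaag
Rps27rt (chr9:114982366-114982739, minus strand): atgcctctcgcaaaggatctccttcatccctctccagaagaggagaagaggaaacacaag
Rps27l (chr9:66946086-66949516, plus strand): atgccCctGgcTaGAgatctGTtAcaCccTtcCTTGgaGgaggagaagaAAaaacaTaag

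Rps27l, which shared no 100-base window with another gene, had counts in M21 that were 1.00 times those in M4 in both pools. Rpl10a was 1.67-fold higher in M21 in pool 2 and 1.60-fold in pool 1. Rpl27 was 1.59-fold higher in pool 2 and 1.61-fold in pool 1. The 2 lower members were Rps20, at 0.674-fold in pool 2 and 0.688-fold in pool 1, and Rpl36a, at 0.757-fold in pool 2 and 0.723-fold in pool 1. Gm4332, the retrocopy of Rps20 at 298 TPM in pool 2 and 313 in pool 1, has no entry in the M4 tables.

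When each member's counts were summed with those of its retrocopies in the same annotation, nearly all of these differences closed. The sum for Rps27 was 4204 in pool 2 and 5406 in pool 1 in M21, against 4094 in pool 2 and 5305 in pool 1 in M4. Of the 80 families, 78 were within 5% in both pools. Rps24 was the exception past that threshold: its family was 1.30-fold higher in M21 in pool 2 and 1.31-fold in pool 1, nearly the same as the gene alone.

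**Figure D3:**
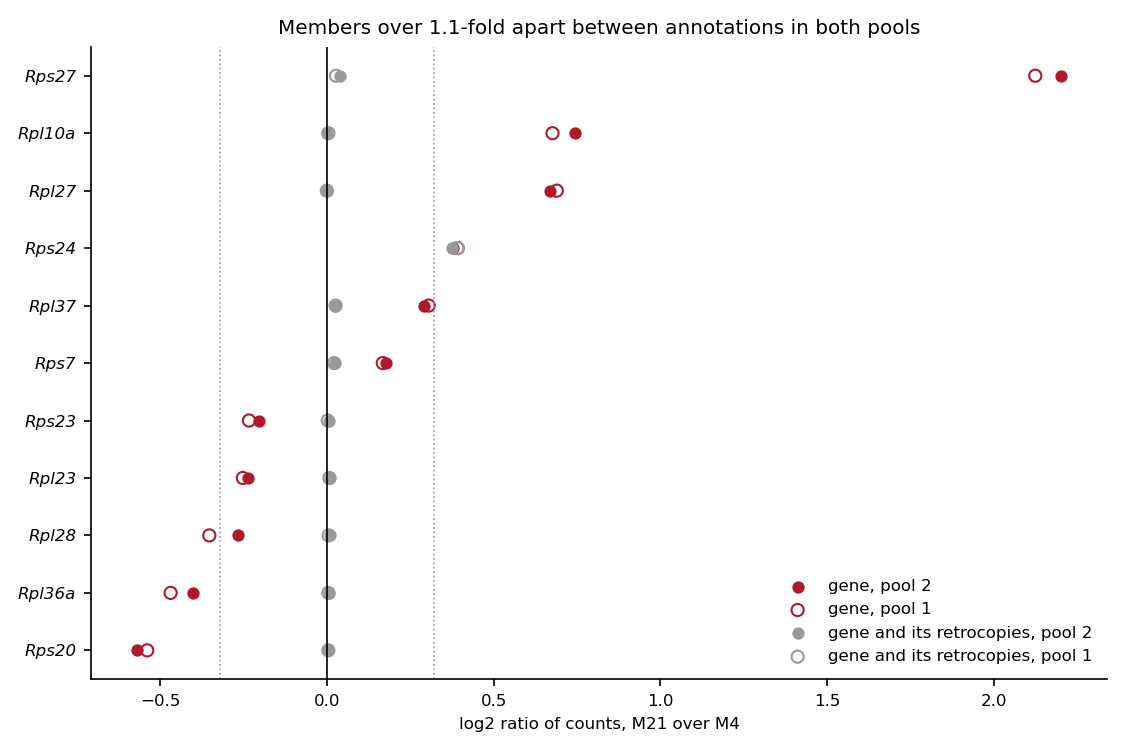
Log2 ratio of counts in M21 over M4 for 11 members more than 1.1-fold apart in both pools, for the gene (red) and for the gene with its retrocopies (grey), in pool 2 (filled) and pool 1 (open); dotted lines mark 25% higher and 20% lower. The grey points lie near 0 for all but Rps24, while Rps27 lies furthest to the right.

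On the TPM scale, which also takes the change of transcript models into account, 7 members were higher in M21 by 25% or more in both pools (background 8.36%) and 5 were lower by 20% or more (background 2.51%). At 2-fold, 2 were higher, Rps27 among them (background 1.93%) and 0 were lower (background 0.877%). Rpsa, with counts 1.01-fold and 1.00-fold those of M4, was 1.72-fold higher on the TPM scale in pool 2 and 1.73-fold in pool 1.

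The 500 transcripts annotated for the 80 abundant members were read out in the M21 transcript tables. The transcript of highest TPM held a median of 84.6% of its gene, and in 18 members it held under 60%. The lowest shares were 31.5% ± 3.43 for Rpl13a-207, 35.8% ± 0.848 for Rpl15-202, 40.2% ± 1.29 for Rpl37-202, 42.8% ± 1.53 for Rpl5-201 and 44.0% ± 4.03 for Rpl29-202 (SD, n = 2). In 10 of the 80 members the top transcript was not annotated as protein coding (background 8.32% of protein-coding genes at 10 TPM or more). The top transcripts of Rps23 (Rps23-202, 49.8% ± 0.844) and Rps20 (Rps20-201, 87.4% ± 0.147) are annotated as retained introns. Over the members, protein-coding transcripts held 84.3% of TPM in pool 2 and 84.4% in pool 1, against 83.3% and 83.2% in the other genes. Transcripts marked for nonsense-mediated decay held 5.92% in pool 2 and 6.16% in pool 1, against 3.05% and 3.06% in the other genes. Reads of about 100 bases rarely span a whole transcript, so these shares rest on the deposited estimates.

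Between the pools, nearly all members were lower in pool 2. With counts scaled by the trimmed mean of M values, 80 members had 50 or more mean counts, and 77 of them had a log2 ratio of pool 2 to pool 1 below 0 (48.6% of all 14989 genes). The median over the members was -0.18, a level 0.881 times that of pool 1, against 0.00 over all genes. It was -0.19 over the 31 members of the 40S subunit and -0.17 over the 49 of the 60S subunit. The range ran from -0.48 to 0.10, so the shift was common to most members and small.

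By 20% or more, 7 members were lower in pool 2 (background 5.6%), and by 25% or more, the same fold, 0 were higher (background 5.88%). At 2-fold 0 were lower (background 0.414%) and 0 higher (background 0.587%). With 1 pool on each side these are fold counts without a test. Among the 7 were Rps27 (-0.48), Rps28 (-0.39), Rps15 (-0.35), Rps29 (-0.34), Rpl34 (-0.34) and Rpl41 (-0.33). The 3 members above 0 were Rpl5 (0.10), Rpl7l1 (0.01) and Rpl13a (0.00). Both ends of the range moved when the counts of retrocopies were added to each gene: Rps27 had -0.25 and was no longer 20% lower, and Rpl5 had -0.09, a turn of direction. With retrocopies added, 78 of the 80 were below 0, the median was -0.18, and 6 of the 7 remained lower by 20% or more. In bulk tissue, fewer cells of a type and less RNA per cell cannot be told apart.

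The ratio went with transcript length, in the members and in other genes alike. In the class under 500 bases, 14 members had a median log2 ratio of -0.24, against -0.17 in 195 other genes. From 500 to 700 bases the medians were -0.21 in 33 members and -0.13 in 325 other genes. From 700 to 1000 bases they were -0.13 in 23 members and -0.06 in 746 other genes, and from 1000 to 2000 bases -0.07 in 9 members and -0.01 in 3994 other genes. In each of these 4 classes members were lower than other genes of similar length, by less than their shift from all genes. Within the members, the ratio and the length had a Spearman correlation of 0.52 across 80 genes, which share both libraries and are not independent. The members have a median length of 639 bases, against 2509 bases over all genes compared.

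**Figure D4:**
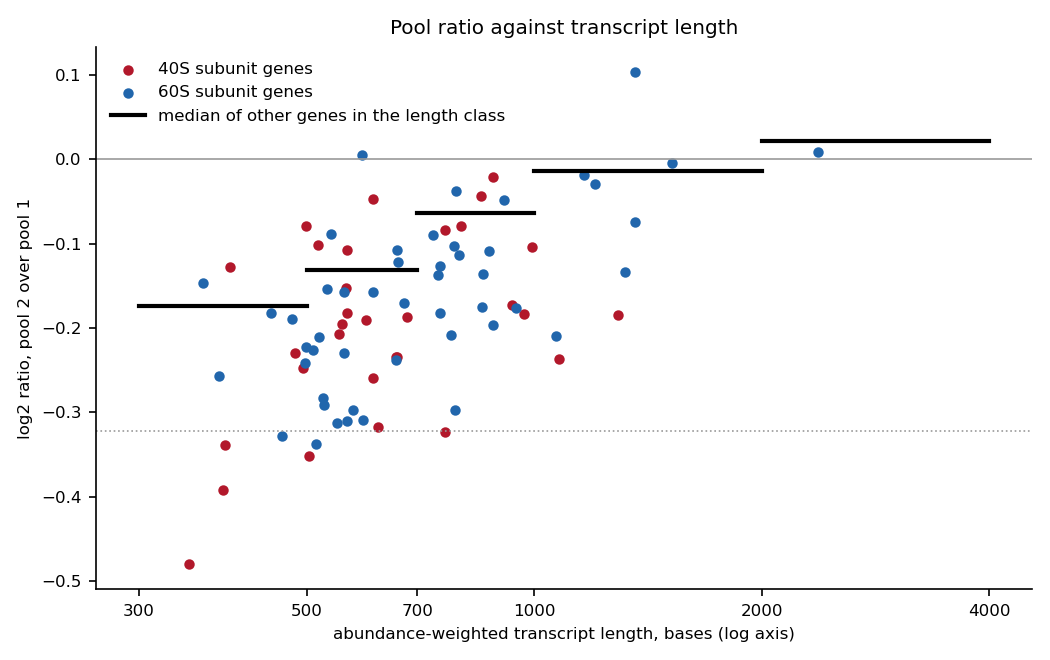
Log2 ratio of pool 2 over pool 1 against abundance-weighted transcript length (log axis) for 80 members, 40S in red and 60S in blue; black bars give the median of other genes in each length class (the outer classes are open) and the dotted line marks 20% lower. Short members lie lowest, and the bars of the other genes rise with length in the same direction.

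Markers of hindbrain and of other tissues also differed between the pools, in sums of deposited TPM. The 6 hindbrain markers summed to 257 TPM in pool 2 and 201 in pool 1, the 5 progenitor markers to 2241 TPM in pool 2 and 2447 in pool 1, and the 5 neuron markers to 1928 TPM in pool 2 and 1888 in pool 1. The 7 erythroid markers, mostly embryonic globins, summed to 15342 TPM in pool 2 and 19324 in pool 1, with all 7 at 1 TPM or more in both. The 8 skeletal muscle markers summed to 212 TPM in pool 2 and 43.6 in pool 1, the 5 mesenchyme markers to 1617 TPM in pool 2 and 1237 in pool 1, and the 3 epithelial markers to 48.6 TPM in pool 2 and 83.9 in pool 1. None of these markers was at 0. The part of these cells and tissues, and of transcript length, in the members' shift was not tested.

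Genes of related function shifted less, in lists that were not matched to the members for transcript length. Over 17 other TOP mRNAs, many of them for translation factors, the median log2 ratio of pool 2 to pool 1 was -0.01, with 10 below 0. The median was 0.03 over 25 genes of ribosome assembly and 0.02 over 11 regulators of TOP mRNA translation. Over 78 mitochondrial ribosomal protein genes it was -0.06, with 58 below 0. Of these 4 lists, 1 gene in all, a mitochondrial one, was higher by 25% or more and 0 were lower by 20% or more. Rack1, a TOP mRNA whose protein sits on the 40S subunit, had -0.21 with 339 TPM in pool 2 and 397 in pool 1.

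The levels of these lists were below those of the members. Of the TOP mRNAs, all 17 were at 1 TPM or more, led by the elongation factor Eef1a1 (2553 ± 69.1 TPM), Hnrnpa1 (881 ± 0.827), Tpt1 (685 ± 12.8) and the nascent chain factor Naca (519 ± 2.15), with a median of 283 TPM. The 25 assembly genes found, of 26 symbols listed, had a median of 57.8 TPM and were led by nucleolin Ncl (274 ± 9.84), the box C/D snoRNP proteins Nop56 (217 ± 19.6) and Nop58 (162 ± 7.21), and the RNA polymerase I factor Rrn3 (96.9 ± 0.721). The 11 regulators had a median of 32.2 TPM, led by the cap-binding protein Eif4e (236 ± 8.74), Tsc2 (66.2 ± 0.827), the S6 kinase Rps6kb1 (55.3 ± 4.51) and Eif4ebp2 (51.8 ± 4.61). The 78 mitochondrial ribosomal protein genes had a median of 70.5 TPM, led by Mrps21 (252 ± 21.7), Mrpl42 (197 ± 11.4), Mrpl52 (190 ± 10.1) and Mrpl17 (181 ± 19.1; SD, n = 2 throughout). Their log2 levels had an SD of 0.88, against 0.96 over the core cytoplasmic genes alone and 0.67 with retrocopies.

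Paralog pairs ranged from similar levels, through Rpl7l1 at an intermediate level, to a second copy close to silent. In 2 of the 8 pairs the second copy was the higher one in both pools, on TPM summed over all transcripts of a gene. Rpl36al, an autosomal copy of the X-linked Rpl36a, had 314 TPM in pool 2 and 347 in pool 1, against 181 TPM in pool 2 and 214 in pool 1 for Rpl36a. The log2 ratio was 0.75 ± 0.07 (SD, n = 2), and it was 0.03 once the retrocopies of Rpl36a were added to its own TPM. The 2 differ at 11 of their first 60 coding bases (capitals) and have 87.9% identity over the coding sequence.
Rpl36a (chrX:134585654-134588062, plus strand): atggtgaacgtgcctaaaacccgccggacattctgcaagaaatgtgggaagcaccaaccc
Rpl36al (chr12:69182731-69184083, minus strand): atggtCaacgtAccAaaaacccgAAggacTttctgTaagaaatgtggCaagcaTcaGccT

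Rpl22l1, whose level is known to be held down by Rpl22 protein in mouse cells, had 230.4 TPM in pool 2 and 282 in pool 1, against 198 TPM in pool 2 and 219 in pool 1 for Rpl22. The log2 ratio was 0.30 ± 0.10 (SD, n = 2), and both gene totals of Rpl22l1 lay above both of Rpl22. Of the Rpl22l1 total, 34.1% was on Rpl22l1-209, a processed transcript that is not annotated as protein coding. The top protein-coding transcript of Rpl22l1 (Rpl22l1-206) had 101 TPM in pool 2 and 145 in pool 1. That of Rpl22 (Rpl22-201) had 157 TPM in pool 2 and 174 in pool 1, so the order of the gene totals does not hold for these transcripts. Rpl22 had 0% of its expected reads in shared windows and Rpl22l1 had 45.2%.

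Rps27l, a p53 target, had 344 TPM in pool 2 and 360 in pool 1, against 559 TPM in pool 2 and 782 in pool 1 for Rps27. The log2 ratio of -0.91 ± 0.29 (SD, n = 2) reversed to 0.57 with the M4 tables, in which Rps27 had fewer counts. Rps4l on chromosome 6 had 188 TPM in pool 2 and 186 in pool 1, against 339 TPM in pool 2 and 381 in pool 1 for the X-linked Rps4x, with 80.1% identity to the coding sequence of Rps4x. Rpl7l1 had 108 TPM in pool 2 and 100.5 in pool 1, against 808 TPM in pool 2 and 900.0 in pool 1 for Rpl7, a log2 ratio of -3.03 ± 0.18.

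The members known from other tissues were close to silent. Rpl39l, known from the testis and a copy of the X-linked Rpl39, had 10 counts in pool 2 and 13 in pool 1, which is 0.81 TPM in pool 2 and 1.05 in pool 1, against 297 TPM in pool 2 and 330 in pool 1 for Rpl39. That is 0.272% of Rpl39 in pool 2 (95% exact Poisson interval 0.131% to 0.501%) and 0.319% in pool 1 (0.170% to 0.545%). The 2 coding sequences differ at 4 of the first 60 bases (capitals), and none of the expected reads of Rpl39l fell in a shared window.
Rpl39 (chrX:37082520-37085402, minus strand): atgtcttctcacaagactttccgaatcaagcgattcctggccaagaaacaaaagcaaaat
Rpl39l (chr16:10170226-10174911, plus strand): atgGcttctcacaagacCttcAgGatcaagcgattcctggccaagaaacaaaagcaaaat

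Rpl3l, a paralog of Rpl3 known from heart and skeletal muscle, had 2 counts in pool 2 and 1 in pool 1, against 493 TPM in pool 2 and 519 in pool 1 for Rpl3. That is 0.0446% of Rpl3 in pool 2 (95% exact Poisson interval 0.00541% to 0.161%) and 0.00964% in pool 1 (0.000244% to 0.0537%). Rpl10l, a retroposed copy of the X-linked Rpl10 that is needed in male meiosis, had 0 counts in both pools. A count of 0 allows up to 3 counts, or 0.176 TPM in pool 2 and 0.163 in pool 1, which places Rpl10l at least 2263-fold lower than Rpl10 in pool 2 and at least 2622-fold lower in pool 1. The germ cell markers Dazl and Ddx4 were under 1 TPM and Dppa3 had no count. Intervals and floors cover counting error only.

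**Figure D5:**
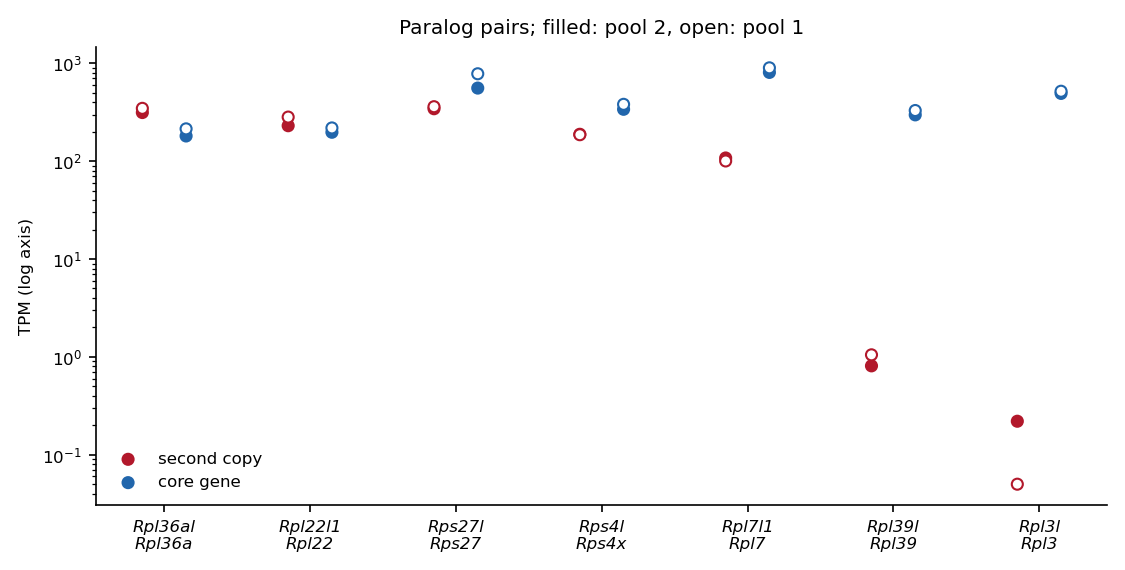
TPM (log axis) of 7 paralog pairs in pool 2 (filled) and pool 1 (open), with the second copy in red, left of the core gene in blue; Rpl10l, with no counts, is left out. The pairs on the left lie at similar levels, Rpl7l1 lies lower than Rpl7 but near 100 TPM, and Rpl39l and Rpl3l on the right lie far lower than their partners.

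The transcription starts of the members were compared with the TOP motif, with sequence from RefSeq on GRCm38.p6. Of the 83 members, 63 had a start in the table. A tract of a C at the start followed by C or T, 5 or more bases long in all and read on the transcribed strand, was found at an annotated start of 13 members, or 20.6%, against 2.71% of all 16522 protein-coding genes with a start. A tract of 8 or more bases within 25 bases of a start was found in 52.4% of members against 18.2% of all genes. The motif CCGGAAG, searched on both strands of the 300 bases around a start, was found in 39.7% of members against 13.4% of all genes, and in 37.7% of the 69 mitochondrial ribosomal protein genes with a start. The windows shown hold 20 bases before the annotated start and 10 from it on, with the tract in capitals, for members with a tract at the start.
Rps6 (chr4:86857358-86857387, minus strand): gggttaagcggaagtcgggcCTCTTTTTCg
Rpl38 (chr11:114668560-114668589, plus strand): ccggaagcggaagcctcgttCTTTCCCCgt
Rps27 (chr3:90213639-90213668, minus strand): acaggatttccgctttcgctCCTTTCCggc
Rps18 (chr17:33955656-33955685, minus strand): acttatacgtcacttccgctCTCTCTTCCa
Rpl15 (chr14:18270977-18271006, minus strand): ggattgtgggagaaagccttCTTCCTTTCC
Rplp2 (chr7:141447631-141447660, plus strand): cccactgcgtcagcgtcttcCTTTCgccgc

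The other 50 members with a start had no such tract at it. Among them were Rpl39l and Rpl3l, which were close to silent here, but also the abundant Rpl39, Rpl22 and Rpl22l1. The windows of Rpl39l and its abundant partner Rpl39 are shown side by side.
Rpl39l (chr16:10170208-10170237, plus strand): cctagctcccaggcctttccggatttccgg
Rpl39 (chrX:37085213-37085242, minus strand): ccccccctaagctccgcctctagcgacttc

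RefSeq starts are often placed a few bases from the site used in a tissue, and the deposited tables do not give starts, so a window without the tract says only that these letters are not at the annotated base. The window of Rpl39 lies wholly inside the M21 gene, which on the minus strand begins at chrX:37085402, further from the RefSeq start than a few bases. Rpl39l, Rpl39 and Rpl22l1 each have a longest tract of 8 bases within 25 bases of the RefSeq start.

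The members lay on 19 chromosomes, with 14 on chromosome 7 and 4 on the X (Rpl10, Rpl36a, Rpl39 and Rps4x), and each X-linked member has an autosomal copy among the paralog pairs. Inside 29 members the annotation places 56 snoRNA genes on the same strand, with 5 in Rpl4 and 4 in Rpl13a. Small nucleolar RNAs guide modification of ribosomal RNA and are released from introns of these genes, and polyA libraries are not made to measure them.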

How the data were processed

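PolyA RNA was sequenced from 2 pools of mouse hindbrain. Per the labels, libraries were made from 10 ng of RNA by oligo-dT priming and Nextera tagmentation, with ERCC spike-ins. The quantification program and its strand setting are not given in the sources used here; genes that overlap on the genome may share counts. Gene models were those of GENCODE M21 or M4 (mm10), as the read-me files state.

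The authors' expected counts are estimates of reads per gene and carry no scaling for library size. Their deposited TPM values have a fixed total over genes, tRNA entries and spike-ins, and deposited FPKM values are scaled by effective length and library total. The deposited posterior SD of each count, used as a score of assignment, and the isoform share in percent are the authors' values; isoform shares printed here were computed from transcript TPM.

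Members were matched by M21 gene type and symbol. Ratios between pools used expected counts rounded to whole numbers for the trimmed mean of M values (edgeR 4.0.16), a prior count of 0.5, and genes with 50 or more mean counts. Log2 levels used a pseudocount of 0.1 TPM, which understates differences of low genes. Retrocopies were found by identical windows of 100 bases between transcripts; small nucleolar RNAs were left out. Coding sequences compared were those of the principal transcript. The ratio script was tested on simulated counts. Named genes are the 8 highest and lowest core genes, the paralog pairs, the 5 largest ratios each way between pools and annotations, the lowest top-transcript shares, members under 1 TPM, the highest pseudogenes named after a member, the genes of special role listed, and the 4 highest of each other list. Members and lists were chosen with earlier results of these data known. Alternatives are given at the end. Some genes that this rule names are left out of the text and figures.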

Additional observations from a re-analysis of the deposited data

How the results depend on the processing

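The count of members at 1 TPM or more was 80 to 81 under the M4 tables and thresholds of 0.5 and 5 TPM. The median level was 281 with FPKM in place of TPM, and 422 and 479 TPM with each pool alone; the members' share was 4.59% of TPM, and 1.41% to 1.59% of counts with each pool alone. The SD of log2 TPM over the core genes (0.96) was 0.92 with M4, 0.93 with full transcript length, 0.92 with pseudogenes named after the gene added and 0.67 with retrocopies added, an alternative chosen after seeing the data. It was 0.95 to 0.97 with each pool alone. The log2 ratio of 40S to 60S was 0.052 with M4 and 0.050 with full length, and 0.09 to 0.11 with each pool alone. The median log2 pool ratio of the members (-0.18) was -0.56 with spike-in totals, which moved the median of all genes to -0.37, and 79 members were then lower by 20% or more. Each scaling shifts all genes alike, so the members' difference from the median of all genes (-0.19) is the same under each by construction. With DESeq2 1.42.0 size factors 9 were, at 2-fold 0 were, and 6 were with retrocopies added, an alternative chosen after seeing the data. The count apart between annotations (7) was 12 with TPM or FPKM, 1 at 2-fold and 1 with retrocopies added, also chosen after seeing the data, and 7 to 8 with each pool alone. The ratio of Rps27l to Rps27 was 0.57 with M4. Windows of 50 bases put 54 members over 50% of shared reads, against 36. The number of pairs with the second copy lower was 5 with M4 and 6 otherwise. No paired analysis was possible because there is 1 group. Depth limits only Rpl3l, Rpl10l and Rpl39l.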
